A study of Rattus norvegicus with 9 samples.

Results

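The genes described here encode voltage-gated sodium, potassium and calcium channels, CLC chloride channels and exchangers, HCN channels and TRP channels, with their auxiliary subunits. They were taken as every array feature with a single gene symbol that starts with Scn, Kcn, Cacn, Clcn or Hcn, or with Trpa, Trpc, Trpm or Trpv and a digit, and a gene with several such features was represented by the brightest, by its mean over the 9 arrays. The rule gave 150 genes of the 14506 genes on the array. It also took in members that are no voltage-gated or TRP pore. Among them are 15 inward rectifiers, 11 two-pore potassium channels, the calcium-activated channel gene Kcnn4 and 3 subunits of the epithelial sodium channel. Others are 8 genes of the calcium channel gamma family, the TRP-associated protein gene Trpc4ap and the splicing factor gene Scnm1.

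Expression was measured on Affymetrix Rat Gene 1.0 ST arrays, which probe whole transcripts, in cultured primary cells of adult Sprague Dawley rats. The groups were Schwann cells grown out of dorsal trunk SKPs (precursor cells from skin), Schwann cells of the sciatic nerve, and the SKPs, with 3 samples each that the design calls independent. SKPs were grown as floating spheres for 1 or 2 passages, whereas both kinds of Schwann cell were plated in Schwann cell medium, passaged and grown to confluence before RNA was taken, so cell type and culture form cannot be told apart. Per the labels, data of the SKPs were re-used from earlier samples, so the time of hybridisation and the group cannot be told apart in either comparison with SKPs; the tissue label is dermis for all 9 samples, the nerve cells included.

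Voltage-gated channels open when the membrane potential changes, and inward rectifier and two-pore potassium channels set the resting potential. Schwann cells, the glia of peripheral nerve, do not fire trains of action potentials as neurons do, but carry potassium channels that buffer the potassium released by axons and that bear on their proliferation. Scn7a encodes an atypical sodium channel that is gated by extracellular sodium rather than by voltage and is known from glia, Schwann cells included.

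The largest rises in Schwann cells were those of Scn7a and Kcnj10, and Cacna2d1 had the largest fall among members with a promoter in the RefSeq table for assembly GRCr8 (109 of 150 members had an entry). Their promoters are printed to show the sequence around the start of the genes on which the comparison turns. Each runs from 250 bases before to 50 bases after the annotated start, 5′ to 3′ on the gene's strand, and capitals mark the motif ACAAAG, a core that SOX-family factors bind. Scn7a lies at chr3:71846235-71846534 on the minus strand, Kcnj10 at chr13:87334260-87334559 on the plus strand and Cacna2d1 at chr4:20330098-20330397 on the minus strand.
Scn7a: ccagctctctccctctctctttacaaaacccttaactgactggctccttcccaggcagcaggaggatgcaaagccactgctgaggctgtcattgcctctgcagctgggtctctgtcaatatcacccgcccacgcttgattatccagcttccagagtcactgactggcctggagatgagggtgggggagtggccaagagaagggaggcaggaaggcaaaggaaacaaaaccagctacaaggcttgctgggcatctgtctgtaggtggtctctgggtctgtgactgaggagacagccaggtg
Kcnj10: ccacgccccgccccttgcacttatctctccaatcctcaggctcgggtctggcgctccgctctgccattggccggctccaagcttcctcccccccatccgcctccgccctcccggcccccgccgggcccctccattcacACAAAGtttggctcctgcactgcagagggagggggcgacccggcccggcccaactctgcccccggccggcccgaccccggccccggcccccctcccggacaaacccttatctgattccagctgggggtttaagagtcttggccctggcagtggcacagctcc
Cacna2d1: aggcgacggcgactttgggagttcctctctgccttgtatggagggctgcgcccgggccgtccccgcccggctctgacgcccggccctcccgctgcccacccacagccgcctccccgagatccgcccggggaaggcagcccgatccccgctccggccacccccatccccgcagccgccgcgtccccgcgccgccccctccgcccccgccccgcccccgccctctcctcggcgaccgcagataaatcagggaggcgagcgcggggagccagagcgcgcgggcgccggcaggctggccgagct
Of these sequences, that of Kcnj10 held ACAAAG on its own strand. On either strand, ACAAAG was present in 14 of the 109 member promoters (12.8%) and in 5035 of all 27457 promoters in the table (18.3%). The AP-1-type motif TGANTCA, in which N is any base, was present in 6 of 109 member promoters (5.5%) and in 2012 of all promoters (7.33%); no match to it was found in the 3 sequences printed. A match is a description of the letters and no measure of binding.

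Values are the authors' RMA values on a log2 scale, so a difference of 1 is a 2-fold change; levels are read within a gene and not between genes, since probes differ. Differences were tested with limma over all 14506 genes, and adjusted p-values are Benjamini-Hochberg values over all of them. The deposited values were not on 1 scale: over all features, medians were 6.33 to 6.44 on the arrays of SKP-derived Schwann cells, 6.82 to 6.87 on those of nerve Schwann cells and 6.20 to 6.27 on those of SKPs. The median of all genes' differences was accordingly 0.46 for nerve Schwann cells minus SKPs and -0.45 for SKP-derived minus nerve Schwann cells as deposited, against -0.03 and -0.02 after cyclic loess between arrays. For this reason a gene is said below to have risen or fallen only where its adjusted p was under 0.05 in the same direction both as deposited and after cyclic loess. Differences are given as deposited unless cyclic loess is named. Those of nerve Schwann cells carry the shift of their arrays, so deposited sizes are not to be compared between the Schwann cell groups.

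The labels were checked against marker genes. All 6 Schwann cell markers measured (Sox10, S100b, Erbb3, Cdh19, Pmp2 and Ngfr) rose in both Schwann cell groups, and their mean log2 level lay between 10.83 and 11.78 in SKP-derived and between 11.52 and 11.70 in nerve Schwann cells, against 5.23 to 5.61 in SKPs. Of 8 dermal mesenchyme markers, 7 fell in each Schwann cell group; their mean was 8.28, 9.72 and 8.84 on SKP-derived arrays 1, 2 and 3, 8.91, 9.54 and 8.67 on nerve arrays, and 12.03, 12.02 and 10.64 on SKP arrays. The mean of 8 macrophage markers was 5.14 to 5.41 in SKP-derived and 5.83 to 5.92 in nerve Schwann cells, but 7.63, 6.25 and 5.58 on SKP arrays 1, 2 and 3. The mean of 4 melanocyte markers was highest on SKP array 3, at 6.85, and on SKP-derived array 1, at 6.76, and lay between 5.77 and 6.30 on the other arrays. In whole-culture RNA, fewer cells of a type and less RNA per cell cannot be told apart, and the part of other cell types in the channel differences was not tested beyond the values given below.

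In SKP-derived Schwann cells, 18 of the 150 channel genes rose and 24 fell relative to SKPs. The glial channels Scn7a and Kcnj10 rose most, and the calcium-activated potassium channel Kcnn4 and the calcium channel subunit Cacna2d1 fell most. The counts are shares of 12% and 16%, beside 17.7% of all genes that rose and 21.4% that fell. As deposited, 22 members were called higher and 24 lower (19.3% and 22.3% of all genes); after cyclic loess the numbers were 18 and 30 (18.6% and 23.9% of all genes). The median difference over the 150 genes was 0.06, beside -0.01 over all genes.

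In nerve Schwann cells, 36 channel genes rose (24%) and 16 fell (10.7%) relative to SKPs, beside 22.4% and 14.9% of all genes. As deposited, 101 members were called higher and 16 lower, beside 49.7% and 14.9% of all genes, whereas 36 and 30 were called after cyclic loess, beside 22.4% and 25.6%. Of the 101, 63 were not called after cyclic loess and 2 were called lower, and the median member difference was 0.70 as deposited and 0.05 after cyclic loess. Both comparisons use the same 3 SKP arrays, so their results are set side by side here and are no check on each other. Over either comparison, 63 of the 150 genes rose or fell, and 87 did neither in any comparison. Genes named below for the size of their change were taken only where the 2 groups compared did not overlap as deposited. For these genes a lack of overlap was fixed by the choice. Members are named below by a rule on the size of their change or from a list of channels with known roles; Cacna1a, Cacna1i, Cacna2d3, Cacnb1, Cacnb3, Cacng7, Clcn6, Hcn3, Hcn4, Kcna4, Kcnd3, Kcne3, Kcne4, Kcng2, Kcnh3, Kcnh6, Kcnh7, Kcnip1, Kcnj15, Kcnj16, Kcnk9, Kcnk10, Kcnk15, Kcnt2, Kcnv1, Scn2a, Scnm1, Trpc4ap, Trpm8 and Trpv5 are named besides, because a count of 5 or fewer holds them or for their values, and were chosen after their values were seen.

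**Figure D1:**
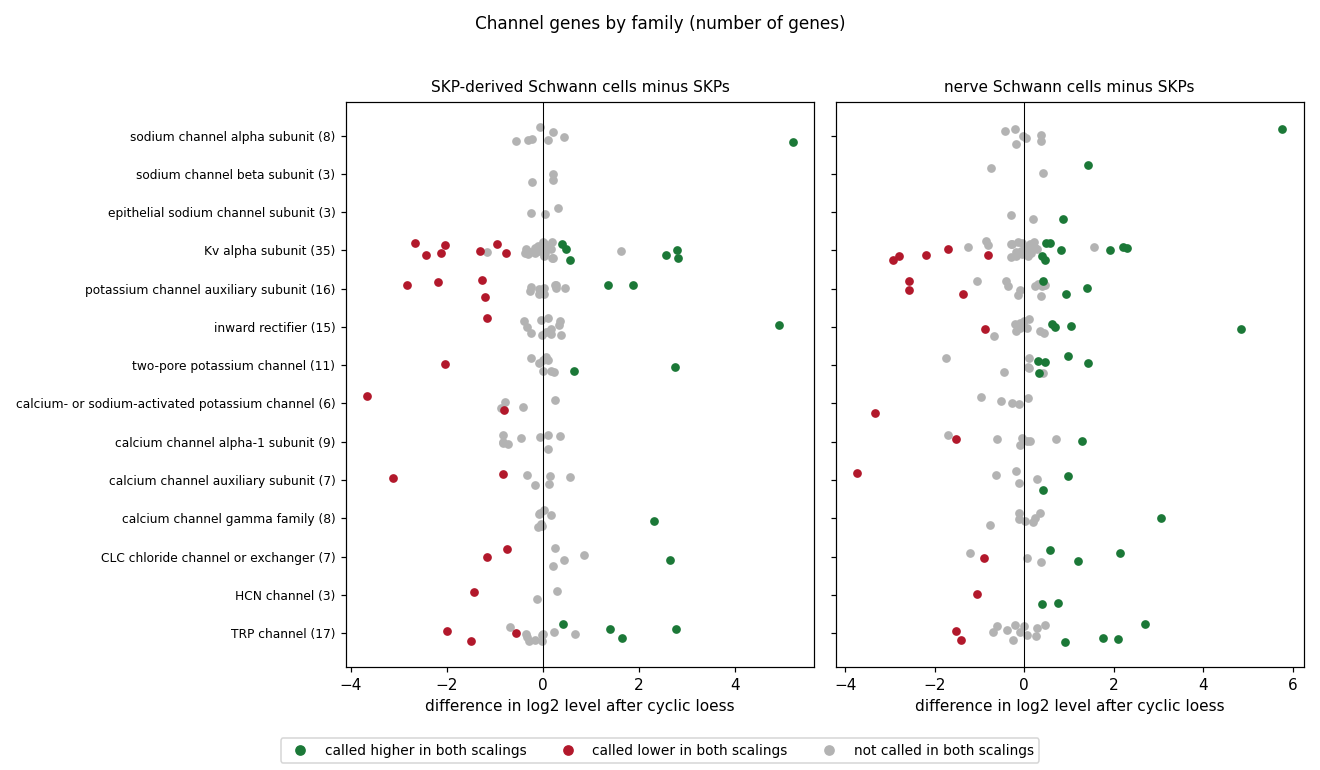
Difference in log2 level after cyclic loess for each channel gene, by family, for SKP-derived Schwann cells minus SKPs (left) and nerve Schwann cells minus SKPs (right); green and red points are genes called higher or lower both as deposited and after cyclic loess. Of the 148 genes drawn, 116 (left) and 113 (right) lie within 1 log2 unit of 0, and Scn7a (5.20 and 5.76) and Kcnj10 (4.91 and 4.85) lie highest in both panels; Trpc4ap and Scnm1 are left out.

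Among the 8 sodium channel alpha subunits, Scn7a alone rose, beside 17.7% of all genes in SKP-derived and 22.4% in nerve Schwann cells. Its log2 level was 12.89, 11.93 and 11.77 in SKP-derived Schwann cells and 12.85, 12.85 and 12.90 in nerve Schwann cells, against 7.97, 6.03 and 6.66 in SKPs. No SKP array came near a Schwann cell array, although the SKP arrays spread widely and array 1 was the highest of them. The gene was 5.31 higher in SKP-derived Schwann cells than in SKPs (SE 0.451, 39.7-fold, adjusted p = 2.75e-05) and 5.98 higher in nerve Schwann cells (SE 0.451, adjusted p = 1.4e-05), the largest rise of any member in both comparisons. The other 7 alpha subunits, pores of the action potential in neurons and muscle, had differences between -0.54 and 0.49 in SKP-derived Schwann cells. Scn3a, a pore of embryonic neurons, had 4.46, 4.49 and 4.61 in SKP-derived Schwann cells, 5.06, 5.06 and 5.06 in nerve Schwann cells and 4.52, 4.56 and 4.61 in SKPs. A less bright feature of Scn3a, not tested on its own, had 3.41, 3.28 and 3.34, 4.41, 4.02 and 4.25, and 4.29, 3.83 and 3.86 in the same order. SKP-derived Schwann cells were thus below SKPs on that feature. On the feature used, the nerve values of Scn3a are equal on all 3 arrays, as they are for 298 of all genes (2.05%) and for the members Cacna2d3, Kcnip1 and Scn2a, while no gene had equal values over the arrays of another group. As deposited, Scn3a was called higher in nerve Schwann cells by 0.49, and after cyclic loess its difference was -0.18 with an adjusted p of 0.237. Of the genes named here by rule and called higher in nerve Schwann cells as deposited, the potassium channels Kcna6 (0.68 and -0.06) and Kcnc1 (0.47 and -0.19) changed sign in the same way. The nerve differences of Kcnma1 (0.22 and -0.53), Kcnj2 (0.49 and -0.11), Cacna1h (0.18 and -0.10), Trpc6 (0.28 and -0.25) and Trpm7 (0.16 and -0.09) also changed sign, and were called in neither scaling.

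Sodium channel beta subunits are adhesion proteins that modulate the pores. Scn3b had levels of 5.11, 4.62 and 4.87 in SKP-derived Schwann cells and 6.64, 6.69 and 6.90 in nerve Schwann cells, against 4.72, 4.48 and 4.46 in SKPs. It thus stood above SKPs in the nerve cells, where it rose by 2.18 (SE 0.16, adjusted p = 1.19e-05), while SKP-derived Schwann cells differed from SKPs by 0.31 (adjusted p = 0.147). Scn2b had differences of -0.17 in SKP-derived and -0.00 in nerve Schwann cells as deposited, and of -0.24 and -0.74 after cyclic loess, where it was called lower in nerve Schwann cells only (adjusted p = 0.0016; 0.169 in SKP-derived Schwann cells). Scn4b had 0.32 and 1.10 as deposited, and neither gene was called in the same direction in both scalings. Of the 3 epithelial sodium channel subunits, which form amiloride-sensitive channels, Scnn1g rose in nerve Schwann cells, at 6.55, 6.80 and 6.62 against 4.94, 5.09 and 5.18 in SKPs (difference 1.59, adjusted p = 1.82e-05, 0.86 after cyclic loess). In SKP-derived Schwann cells Scnn1g had 5.51, 5.45 and 5.53 and was called as deposited only, with an adjusted p of 0.0921 after cyclic loess.

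The inward rectifiers were led by Kcnj10, which encodes the channel through which glia take up potassium. Its log2 level was 11.25, 10.72 and 11.70 in SKP-derived Schwann cells and 11.47, 11.39 and 11.22 in nerve Schwann cells, against 6.20, 6.40 and 6.20 in SKPs. The groups were far apart and the SKP arrays lay close together. Kcnj10 rose by 4.96 in SKP-derived Schwann cells (SE 0.224, 31.1-fold, adjusted p = 1.38e-06) and by 5.10 in nerve Schwann cells (adjusted p = 1.05e-06). No other of the 15 inward rectifiers rose in SKP-derived Schwann cells, while 3 more rose in nerve Schwann cells, namely Kcnj8, Kcnj15 and Kcnj16. Of all genes, 17.7% rose in SKP-derived and 22.4% in nerve Schwann cells. Kcnj8, a pore of ATP-sensitive potassium channels, had 6.83, 6.92 and 6.71 in nerve Schwann cells against 4.85, 4.83 and 5.44 in SKPs (difference 1.78, adjusted p = 0.000125), and 5.64, 5.30 and 5.005 in SKP-derived Schwann cells. Kcnj16, which can form channels together with Kcnj10, was 1.20 higher in nerve Schwann cells as deposited; after cyclic loess its call was lost without nerve array 1 or 2 or SKP array 1 or 2. Kcnj12, a strong inward rectifier, fell in both Schwann cell groups, with 7.90, 7.65 and 7.96 in SKP-derived and 8.48, 8.33 and 8.48 in nerve Schwann cells, against 9.10, 9.25 and 8.70 in SKPs (differences -1.18 and -0.59, and -1.15 and -0.87 after cyclic loess). Kcnj2, another strong inward rectifier, had 6.28, 6.60 and 6.20, 6.75, 6.88 and 6.75 and 6.94, 6.31 and 5.66 in the same order of groups and did not pass in either comparison.

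Among the 35 voltage-gated potassium (Kv) channel alpha subunits, 6 rose and 7 fell in SKP-derived Schwann cells, and 8 rose and 5 fell in nerve Schwann cells. These counts are near the shares of all genes, 17.7% and 21.4% in SKP-derived and 22.4% and 14.9% in nerve Schwann cells. Kcna2, a delayed rectifier known from axons and from Schwann cells, rose in both, with 9.73, 8.51 and 9.35 in SKP-derived Schwann cells and 9.53, 8.88 and 8.41 in nerve Schwann cells, against 6.49, 6.20 and 6.63 in SKPs (differences 2.76 and 2.50, adjusted p = 0.000238 and 0.00027). Every Schwann cell array was higher than every SKP array. Its partner Kcna1 was less even, with 9.65, 8.11 and 7.64 in SKP-derived and 8.44, 7.12 and 7.31 in nerve Schwann cells, against 4.96, 7.49 and 4.54 in SKPs, so SKP array 2 lay among the nerve arrays and just under the SKP-derived ones. Kcna1 rose by 2.80 in SKP-derived Schwann cells (adjusted p = 0.017), a call that was lost without SKP-derived array 1 (adjusted p = 0.0636) or SKP array 1 (0.0603), and after cyclic loess also without SKP array 3 (0.0563). In nerve Schwann cells it was called as deposited (1.96, adjusted p = 0.0485) and not after cyclic loess (adjusted p = 0.137). Kcnh8, an ether-a-go-go-type channel, had 7.81, 6.79 and 7.57 and 7.37, 7.19 and 7.19 in the SKP-derived and nerve Schwann cells against 4.63, 4.50 and 5.10 in SKPs, and rose by 2.65 and 2.50.

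Kcnq1, a delayed rectifier best known from heart and epithelia, rose by 2.71 in nerve Schwann cells (adjusted p = 0.00293; lost after cyclic loess without nerve array 1, at 0.0505). Its values were 6.79, 6.73 and 8.83 in SKP-derived Schwann cells and 9.50, 8.48 and 7.61 in nerve Schwann cells, against 5.62, 6.0 and 5.84 in SKPs. SKP-derived array 3 and nerve array 1 were the highest of their groups. The SKP-derived difference of 1.63 was called as deposited, at an adjusted p just under 0.05, and not after cyclic loess (adjusted p = 0.0523). Kcna5, a delayed rectifier found in Schwann cells of the mouse, rose by 1.49 in nerve (adjusted p = 0.000182) and by 0.68 in SKP-derived Schwann cells (adjusted p = 0.0174). After cyclic loess these rises were 0.81 and 0.57. The call in SKP-derived cells was lost without SKP-derived array 1 (adjusted p = 0.0613), and after cyclic loess also without SKP-derived array 3 or SKP array 1 or 3. The remaining risers were smaller: Kcnh7 and Kcnv1 rose in both comparisons and Kcng2 and Kcnh3 in nerve Schwann cells, by between 0.44 and 1.22. Of these, the Kcnh7 rise of 0.44 in SKP-derived Schwann cells was lost without nerve array 1 or 2, SKP-derived array 1 or 2, or any SKP array. After cyclic loess the Kcng2 call was lost without any nerve array or SKP array 1 or 3, and the Kcnh3 call without any of the Schwann cell arrays of either group.

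**Figure D2:**
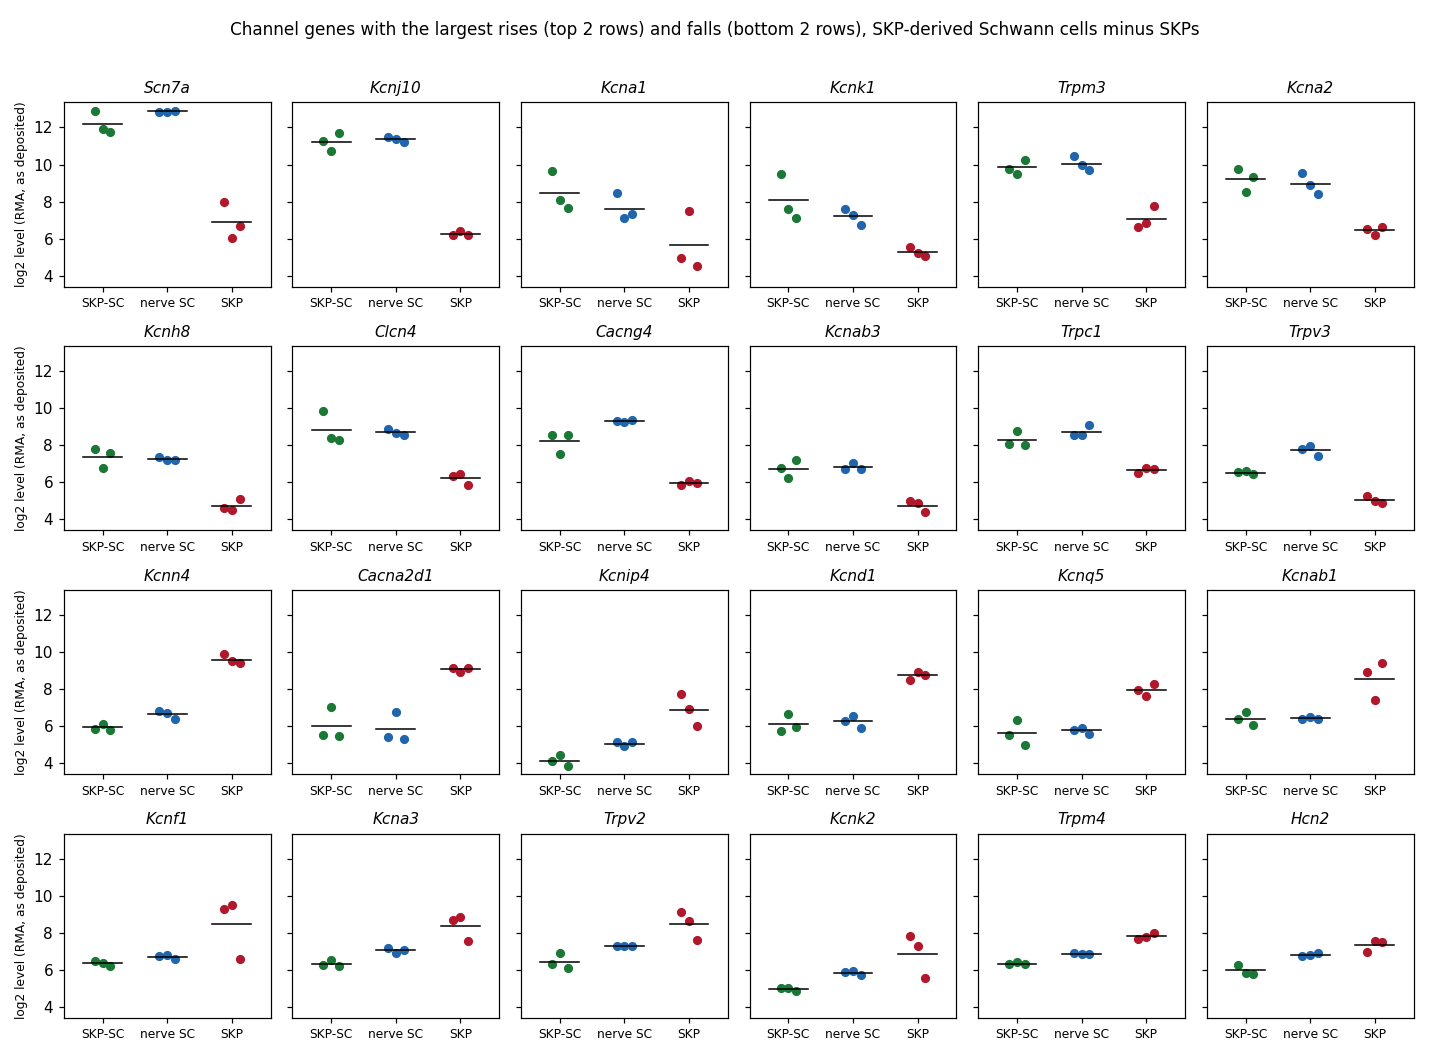
Log2 level as deposited on each array (points) and group mean (line) for the 12 channel genes with the largest rises and the 12 with the largest falls in SKP-derived Schwann cells (green) relative to SKPs (red), with nerve Schwann cells (blue) beside them. Only genes whose green and red points do not overlap were eligible, so their separation was fixed by the choice. The SKP points are spread widest for Kcna1, Kcnf1, Kcnk2 and Kcnab1.

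Several Kv subunits were higher in SKPs. Kcnd1, a pore of the fast inactivating A-type current, had 5.71, 6.63 and 5.92 in SKP-derived Schwann cells and 6.29, 6.56 and 5.92 in nerve Schwann cells, against 8.48, 8.94 and 8.77 in SKPs. It fell by 2.64 in SKP-derived Schwann cells (SE 0.257, adjusted p = 6.01e-05) and by 2.47 in nerve Schwann cells (adjusted p = 6.38e-05). Kcnq5, a pore of the slow M-type current, had 5.54, 6.31 and 5.004 and 5.79, 5.91 and 5.59 in SKP-derived and nerve Schwann cells against 7.96, 7.62 and 8.29 in SKPs, with differences of -2.34 and -2.19. Both genes were high on every SKP array. Kcng1, a silent subunit that forms channels only with other Kv subunits, fell by 1.34 in SKP-derived and by 0.49 in nerve Schwann cells. After cyclic loess its differences were -1.30 and -0.81. Kcnf1, also a silent subunit, had 6.50, 6.35 and 6.20 in SKP-derived and 6.73, 6.78 and 6.59 in nerve Schwann cells, against 9.30, 9.50 and 6.58 in SKPs, so that SKP array 3 lay next to the lowest nerve array. Its fall of 2.11 in SKP-derived Schwann cells (adjusted p = 0.023) was lost without any 1 of the SKP-derived arrays or SKP array 1 or 2 (highest adjusted p 0.0815), and without SKP array 3 it was 3.05. In nerve Schwann cells the fall of 1.76 was likewise lost without any nerve array or SKP array 1 or 2, and was 2.70 without SKP array 3. Kcnd3, an A-type pore, and Kcnh6, an ether-a-go-go-related channel, fell in SKP-derived Schwann cells by 0.74 and by 0.84, and in nerve Schwann cells they were called lower after cyclic loess only.

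Kcna3, a channel known from T cells, macrophages and microglia, had 6.28, 6.50 and 6.22 in SKP-derived Schwann cells and 7.20, 6.92 and 7.07 in nerve Schwann cells, against 8.69, 8.86 and 7.55 in SKPs. It fell by 2.03 in SKP-derived (adjusted p = 0.000588) and by 1.30 in nerve Schwann cells (adjusted p = 0.00393). Cd14, a monocyte and macrophage marker, had 5.34, 6.22 and 4.94 in SKP-derived and 6.42, 6.44 and 6.41 in nerve Schwann cells, against 10.77, 10.25 and 9.18 in SKPs, and fell in both. Ptprc, the common leukocyte antigen, had 7.66, 4.64 and 4.13 on SKP arrays 1, 2 and 3 and thus was high on array 1, while Kcna3 was as high on array 2 as on array 1. Of the 8 macrophage markers, 2 fell in SKP-derived and 1 in nerve Schwann cells; the part of such cells in the Kcna3 difference was not tested.

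Auxiliary subunits of potassium channels went both ways, with 2 of 16 risen and 4 fallen in SKP-derived Schwann cells, and 3 of each in nerve Schwann cells. Beside these counts, 17.7% of all genes rose and 21.4% fell in SKP-derived, and 22.4% and 14.9% in nerve Schwann cells. The beta subunits, which bind Kv alpha subunits in the cytoplasm, were divided. Kcnab3 rose, with 6.79, 6.22 and 7.18 in SKP-derived and 6.74, 7.03 and 6.73 in nerve Schwann cells against 5.004, 4.86 and 4.37 in SKPs (differences 1.98 and 2.09, adjusted p = 0.000273 and 0.000145). Kcnab1 fell, with 6.38, 6.75 and 6.06 and 6.39, 6.50 and 6.39 against 8.90, 7.40 and 9.40 in the same order, SKP array 2 being the lowest SKP array (differences -2.17 and -2.14). Kcnab2 fell as well, by 1.29 in SKP-derived and by 0.99 in nerve Schwann cells. The Kv channel interacting proteins, calcium sensors that bind A-type pores such as Kcnd1, were divided too. Kcnip3 had 7.52, 8.23 and 7.79 in SKP-derived and 7.83, 7.84 and 7.83 in nerve Schwann cells against 6.63, 6.25 and 6.64 in SKPs and rose by 1.34 and 1.33, while Kcnip4 had 4.12, 4.44 and 3.86 and 5.12, 4.94 and 5.11 against 7.71, 6.91 and 5.98 and fell by 2.73 and by 1.81. Kcnip4 was thus uneven over the SKP arrays, with array 1 highest and array 3 lowest. After cyclic loess its differences were -2.83 in SKP-derived and -2.57 in nerve Schwann cells. Of the small single-span subunits, Kcne4 fell in SKP-derived Schwann cells by 1.17 (lost without SKP-derived array 1 or 3 or SKP array 3, at up to 0.0709), and Kcne3 rose in nerve Schwann cells by 1.08 (adjusted p = 0.0489 after cyclic loess, and lost there without any nerve or SKP array or SKP-derived array 1). Kcne4 was also called lower in nerve Schwann cells after cyclic loess (-1.05, adjusted p = 0.0296), and not as deposited.

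Of the two-pore potassium channels, which carry background currents, 2 of 11 rose and 1 fell in SKP-derived Schwann cells, and 5 rose in nerve Schwann cells. The shares of all genes were 17.7% and 21.4% in SKP-derived, and 22.4% risen in nerve Schwann cells. Kcnk1, a weak background channel, had 9.47, 7.62 and 7.12 in SKP-derived and 7.62, 7.27 and 6.73 in nerve Schwann cells, against 5.52, 5.24 and 5.06 in SKPs. SKP-derived array 1 stood well above the other SKP-derived arrays. The gene rose by 2.80 (adjusted p = 0.00211) in SKP-derived and by 1.93 (adjusted p = 0.00858) in nerve Schwann cells, where the call after cyclic loess (adjusted p = 0.0467) was lost without any nerve or SKP array or SKP-derived array 2. Kcnk4, which opens on membrane stretch and arachidonic acid, rose by 1.45 in nerve Schwann cells and by 0.68 in SKP-derived Schwann cells, where the call was lost without SKP-derived array 1 or 2 or SKP array 3 (highest adjusted p 0.0926). Kcnk2, a related stretch-gated channel, went the other way, with 4.99, 5.02 and 4.85 in SKP-derived and 5.85, 5.94 and 5.74 in nerve Schwann cells, against 7.82, 7.27 and 5.53 in SKPs. It fell by 1.92 in SKP-derived Schwann cells (adjusted p = 0.00896), and by 2.59 without SKP array 3, which was the lowest of the SKPs. In nerve Schwann cells its difference was -1.03 with an adjusted p of 0.0767, and without SKP array 3 it was -1.70 with 0.00012. With all arrays Kcnk2 was called lower after cyclic loess, where its means were 5.44 in nerve Schwann cells and 7.18 in SKPs. Kcnk9, Kcnk10 and Kcnk15 rose in nerve Schwann cells by between 1.01 and 1.22 as deposited, but after cyclic loess by 0.33, 0.47 and 0.30, calls that were lost without any 1 of the nerve arrays, SKP-derived array 1 or 3, or SKP array 1 or 2, and for Kcnk9 also without SKP-derived array 2.

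The largest fall in SKP-derived Schwann cells was that of Kcnn4, the intermediate-conductance calcium-activated potassium channel of fibroblasts and blood cells. Its level was 5.83, 6.13 and 5.80 in SKP-derived Schwann cells and 6.81, 6.71 and 6.40 in nerve Schwann cells, against 9.88, 9.49 and 9.39 in SKPs. All SKP arrays were far above all Schwann cell arrays. Kcnn4 fell by 3.66 in SKP-derived Schwann cells (SE 0.179, adjusted p = 2.11e-06) and by 2.94 in nerve Schwann cells (adjusted p = 5.12e-06). Kcnma1, the large-conductance channel, had 5.14, 5.13 and 4.96 in SKP-derived and 6.22, 5.92 and 5.84 in nerve Schwann cells, against 5.41, 5.63 and 6.29 in SKPs. It fell by 0.70 in SKP-derived Schwann cells (adjusted p = 0.0298), a call lost without any SKP-derived array or SKP array 3, and without SKP array 3 the difference was -0.44 (adjusted p = 0.057). The other 4 genes of the calcium- or sodium-activated group neither rose nor fell.

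Among the calcium channels, the auxiliary subunit Cacna2d1, the target of gabapentin, fell furthest. Its level was 5.50, 7.02 and 5.47 in SKP-derived and 5.40, 6.74 and 5.32 in nerve Schwann cells, against 9.14, 8.94 and 9.16 in SKPs. Array 2 was the highest in each Schwann cell group, and array 2 also had the highest mean of the dermal mesenchyme markers in each of them (9.72 and 9.54); the part of mesenchymal cells was not tested. Cacna2d1 fell by 3.08 in SKP-derived Schwann cells (SE 0.464, adjusted p = 0.000687) and by 3.26 in nerve Schwann cells (adjusted p = 0.000317). The cytoplasmic beta subunits gave smaller differences: Cacnb3 fell by 0.87 in SKP-derived Schwann cells, and Cacnb4, with 5.12, 5.01 and 5.05 in nerve Schwann cells and 3.55, 3.94 and 3.16 in SKPs, rose by 1.51 there (adjusted p = 0.000405) and had 4.36, 4.14 and 3.66 in SKP-derived Schwann cells. Cacnb3 was also called lower in nerve Schwann cells after cyclic loess (-0.64, adjusted p = 0.0192), and not as deposited. Cacnb1 rose in nerve Schwann cells by 0.89, and after cyclic loess its call was lost without nerve array 2 or 3.

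The gamma family includes partners of calcium channels and of AMPA-type glutamate receptors. Of its 8 genes Cacng4 alone rose, beside 17.7% of all genes in SKP-derived and 22.4% in nerve Schwann cells. It had 8.57, 7.54 and 8.53 in SKP-derived Schwann cells and 9.33, 9.26 and 9.39 in nerve Schwann cells, against 5.83, 6.05 and 5.95 in SKPs. The SKP arrays lay close together. Cacng4 rose by 2.27 in SKP-derived (SE 0.25, adjusted p = 0.000117) and by 3.38 in nerve Schwann cells (adjusted p = 1.25e-05).

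The 9 calcium channel pores had differences between -0.85 and 0.46 in SKP-derived Schwann cells, where the lowest adjusted p was that of the T-type pore Cacna1i, at 0.0819 as deposited and 0.0545 after cyclic loess. In nerve Schwann cells the P/Q-type pore Cacna1a rose and the T-type pore Cacna1g fell. Cacna1a had 8.29, 7.44 and 7.12 in SKP-derived Schwann cells and 10.20, 10.03 and 8.72 in nerve Schwann cells, against 8.002, 8.35 and 7.90 in SKPs, a nerve difference of 1.56 (adjusted p = 0.00757) whose call after cyclic loess (adjusted p = 0.0374) was lost without nerve array 1 or 2 or any SKP array. Cacna1g had 6.67, 8.37 and 6.93, 6.97, 7.06 and 7.001 and 8.44, 8.72 and 7.37 in the same order, and its nerve fall of 1.17 (adjusted p = 0.0441) was lost without any nerve array, SKP array 1 or 2, or SKP-derived array 3. SKP-derived array 2 was close to SKPs in Cacna1g, as it was the highest of its group in Cacna2d1. The L-type pore Cacna1c had 6.46, 7.33 and 5.88 in SKP-derived and 6.08, 6.51 and 5.91 in nerve Schwann cells, against 7.63, 8.07 and 6.25 in SKPs, with SKP array 3 below the others. Its differences of -0.76 and -1.15 were not called as deposited with all arrays, while without SKP array 3 they were -1.29 (adjusted p = 0.024) and -1.69 (adjusted p = 0.00438). After cyclic loess with all arrays they were -0.82 (adjusted p = 0.194) and -1.70 (adjusted p = 0.0163). Cacna1c was thus called lower in nerve Schwann cells after cyclic loess and not as deposited. The T-type pore Cacna1h had 7.61, 7.53 and 8.24, 8.76, 8.66 and 8.73 and 8.32, 9.43 and 7.87 in the same order and was called in neither comparison; without SKP array 3 its SKP-derived difference was -1.08 (adjusted p = 0.0256).

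The 7 CLC genes, which encode chloride channels of the plasma membrane and chloride/proton exchangers of endosomes and lysosomes, were led by the endosomal exchanger gene Clcn4. It had 9.84, 8.37 and 8.30 in SKP-derived and 8.86, 8.65 and 8.57 in nerve Schwann cells, against 6.36, 6.46 and 5.88 in SKPs, and rose by 2.60 (adjusted p = 0.000482) and 2.46 (adjusted p = 0.000401). SKP-derived array 1 was the highest of the 9 arrays. Clcn2, a plasma membrane channel, had 7.93, 8.12 and 8.11 in nerve Schwann cells against 7.23, 6.95 and 7.17 in SKPs and rose there by 0.93 (adjusted p = 0.000777), while its SKP-derived values of 7.30, 7.12 and 7.61 differed from SKPs by 0.22 (adjusted p = 0.283). Clcn6, of late endosomes, rose by 1.42 in nerve Schwann cells and lost its call after cyclic loess without nerve array 1 or 2 or SKP array 1 or 2.

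Clcn7, the lysosomal exchanger, had 8.63, 8.24 and 8.71 in SKP-derived and 8.49, 8.85 and 8.82 in nerve Schwann cells, against 9.003, 9.27 and 10.77 in SKPs. SKP array 3 was far above the other SKP arrays, and the SKP-derived fall of 1.15 (adjusted p = 0.0402) was 0.61 without it (adjusted p = 0.0334) and was lost without any of the Schwann cell arrays of either group, at up to 0.112. Clcn7 was also called lower in nerve Schwann cells after cyclic loess (-1.22, adjusted p = 0.0232), and not as deposited. Clcn5, an endosomal exchanger, fell by 0.78 in SKP-derived and by 0.60 in nerve Schwann cells, the first call being lost without SKP-derived array 1 or SKP array 3 and the second without nerve array 1 or 3 or SKP array 3 (-0.40 there, adjusted p = 0.117). Clcn3, another endosomal exchanger, had 8.49, 7.74 and 8.50 in SKP-derived and 8.58, 8.48 and 8.46 in nerve Schwann cells, against 7.37, 7.40 and 8.75 in SKPs, and was not called; without SKP array 3 its differences were 0.85 (adjusted p = 0.0156) and 1.12 (adjusted p = 0.00257).

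The 3 HCN channels, which open on hyperpolarisation, did not move together. Hcn2 had 6.28, 5.84 and 5.78 in SKP-derived Schwann cells and 6.75, 6.82 and 6.90 in nerve Schwann cells, against 6.93, 7.55 and 7.51 in SKPs. It fell by 1.36 in SKP-derived Schwann cells (adjusted p = 0.000578) and by 0.51 in nerve Schwann cells (adjusted p = 0.0467), a call as deposited that was lost without any nerve array, SKP-derived array 2 or 3, or SKP array 2 or 3, at up to 0.146. After cyclic loess the Hcn2 differences were -1.43 in SKP-derived and -1.05 in nerve Schwann cells. Hcn3 and Hcn4 rose in nerve Schwann cells by 1.01 and 1.31 as deposited and by 0.40 and 0.75 after cyclic loess, the Hcn3 call being lost after cyclic loess without any nerve array or SKP array 2.

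Of the 17 TRP channels, cation channels that respond to temperature, lipids, stretch and chemical ligands, 4 rose and 3 fell in SKP-derived Schwann cells, and 4 rose and 2 fell in nerve Schwann cells. Over all genes the shares were 17.7% and 21.4% in SKP-derived and 22.4% and 14.9% in nerve Schwann cells. Trpm3, a steroid- and heat-activated channel, had 9.76, 9.51 and 10.27 in SKP-derived and 10.45, 9.98 and 9.72 in nerve Schwann cells, against 6.60, 6.87 and 7.77 in SKPs, and rose by 2.77 (SE 0.324, adjusted p = 0.000167) and 2.97 (adjusted p = 8.31e-05). Its lowest Schwann cell array was well above its highest SKP array. Trpc1, a subunit of receptor-operated cation channels, had 8.07, 8.76 and 7.99 in SKP-derived and 8.53, 8.53 and 9.12 in nerve Schwann cells, against 6.52, 6.75 and 6.71 in SKPs (differences 1.61 and 2.07). Trpv3, a warmth-activated channel of keratinocytes, had 6.56, 6.59 and 6.44 in SKP-derived and 7.79, 7.98 and 7.44 in nerve Schwann cells, against 5.24, 4.98 and 4.87 in SKPs (differences 1.49 and 2.70, adjusted p = 0.00013 and 5.38e-06). The 3 keratinocyte markers measured had means of 4.91 to 5.33 in SKP-derived and 5.51 to 5.62 in nerve Schwann cells, against 4.79 to 5.04 in SKPs, and none of them was called in both scalings; their part was not tested. Trpv1, the capsaicin receptor of sensory neurons, rose by 1.57 in nerve Schwann cells (adjusted p = 0.000594; lost after cyclic loess without any nerve array or SKP array 2), and Trpv5 by 0.49 in SKP-derived Schwann cells, a call lost without any 1 array other than SKP-derived array 3 and SKP array 2.

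Trpv2, a cation channel abundant in macrophages, had 6.34, 6.88 and 6.12 in SKP-derived Schwann cells and 7.31, 7.31 and 7.31 in nerve Schwann cells, against 9.13, 8.61 and 7.61 in SKPs. SKP array 1 was highest and array 3 lowest, as for the mean of the macrophage markers (7.63, 6.25 and 5.58), and the part of macrophages in the Trpv2 difference was not tested. Trpv2 fell by 2.00 in SKP-derived Schwann cells (adjusted p = 0.00139) and by 1.14 in nerve Schwann cells (adjusted p = 0.0153), where the call was lost without SKP array 1 (adjusted p = 0.0503). Trpm4, a calcium-activated channel for monovalent cations, had 6.32, 6.39 and 6.30 and 6.88, 6.84 and 6.87 in SKP-derived and nerve Schwann cells, against 7.64, 7.78 and 7.98 in SKPs, and fell by 1.46 (adjusted p = 3.11e-05) and by 0.94 (adjusted p = 0.000246). Its SKP arrays were close to each other. The cold receptor Trpm8 fell by 0.47 in SKP-derived Schwann cells, lost without SKP-derived array 3 or SKP array 1 or 2, and Trpc4ap fell by 0.84 there. Trpc4ap was also called lower in nerve Schwann cells after cyclic loess (-0.54), and not as deposited. Trpm7, a channel kinase for magnesium, had 9.40, 9.20 and 9.33, 9.44, 9.35 and 9.55 and 8.77, 9.29 and 9.81 in SKP-derived Schwann cells, nerve Schwann cells and SKPs; Trpc6, a diacylglycerol-gated channel, had differences of -0.36 and 0.28, and Trpa1, the irritant receptor of sensory neurons, -0.10 and 0.76. None of these 3 genes was called in both scalings.

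Kcna1, Kcna2 and Cacna1a are well known from neurons, so 11 neuronal markers were read beside them. Their mean was 6.29, 6.73 and 5.87 on SKP-derived arrays 1, 2 and 3, 6.45, 6.49 and 6.24 on nerve arrays, and 5.55, 5.36 and 5.83 on SKP arrays. Nefl, a neurofilament gene, rose in both Schwann cell groups, at 12.63, 11.78 and 9.28 in SKP-derived and 10.75, 9.95 and 9.81 in nerve Schwann cells against 6.57, 5.78 and 5.08 in SKPs. Syn1, a synaptic vesicle gene, rose too, at 7.15, 7.78 and 7.80 and 7.41, 7.33 and 7.15 against 6.29, 6.23 and 5.86 in the same order. Elavl4 and Syt1 fell in SKP-derived Schwann cells, and the other 7 markers neither rose nor fell in either comparison. The part of neuronal transcripts in the channel differences was not tested.

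The question that the Schwann cell groups pose directly is whether channels differ between the skin-derived and the nerve-derived cells. As deposited, limma called 94 of the 150 channel genes lower in SKP-derived than in nerve Schwann cells and 0 higher (0 also at an unadjusted p under 0.05), beside 42.3% and 1.33% of all genes. After cyclic loess 1 was called lower and 1 higher (15 and 6 at an unadjusted p under 0.05), beside 0.6% and 0.731% of all genes. The median member difference was -0.64 as deposited and -0.09 after cyclic loess, beside -0.45 and -0.02 over all genes, and 93 of the 94 calls were absent after cyclic loess. Whether the lower level on the SKP-derived arrays was a matter of the scale of the arrays or of the cells was not tested.

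**Figure D3:**
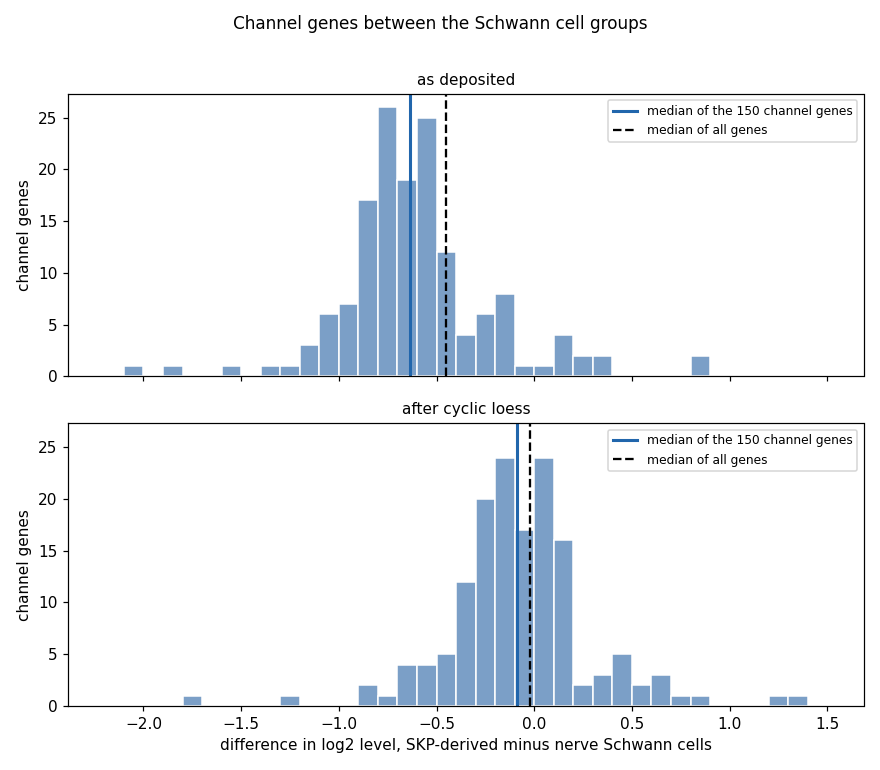
Number of the 150 channel genes by difference in log2 level, SKP-derived minus nerve Schwann cells, as deposited (top) and after cyclic loess (bottom), with the median of the channel genes (blue line) and of all genes (dashed). The channel genes centre on -0.64 as deposited and on -0.09 after cyclic loess.

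Scn3b was the 1 channel gene that fell in both scalings, and it is the beta subunit that rose over SKPs in nerve Schwann cells. With 5.11, 4.62 and 4.87 in SKP-derived Schwann cells against 6.64, 6.69 and 6.90 in nerve Schwann cells, it differed by -1.87 as deposited (SE 0.16, adjusted p = 0.00192) and by -1.22 after cyclic loess (adjusted p = 0.0215). The share of all genes that fell in both scalings was 0.6%, with 0.489% that rose. After cyclic loess the Scn3b call was lost without nerve array 1, 2 or 3 or SKP-derived array 3, at adjusted p of up to 0.122, and as deposited it was kept without any 1 array. Cacng7, called higher by 0.78 after cyclic loess (adjusted p = 0.0391), differed by 0.16 as deposited, and its loess call was lost without SKP-derived array 2 or 3, any nerve array or SKP array 2.

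Other channels had large differences as deposited that did not pass after cyclic loess. Cacna1a had 8.29, 7.44 and 7.12 in SKP-derived against 10.20, 10.03 and 8.72 in nerve Schwann cells, a difference of -2.04 (adjusted p = 0.0054) and of -1.73 after cyclic loess (adjusted p = 0.0841), the most negative of any member. Kcnj8 differed by -1.50 as deposited and -0.89 after cyclic loess (adjusted p = 0.0677), Trpv3 by -1.21 and -0.69 (0.0683), and Hcn4 by -1.36 and -0.88 (0.0562). Kcnj8, Trpv3 and Hcn4 passed after median centring (adjusted p = 0.0355, 0.0375 and 0.0397), and Trpv3 and Hcn4 also after quantile normalisation (adjusted p = 0.0439 and 0.0411). In these 4 genes the SKP-derived arrays were all below the nerve arrays as deposited. On that scale the median difference over all genes was -0.45, and the share of all genes separated in this way is not given. The separation is therefore no mark of these 4 genes. The genes that rose most over SKPs were mixed in this comparison. Scn7a differed by -0.67 (adjusted p = 0.245), Kcnj10 by -0.14 (0.63), Trpm3 by -0.20 (0.629) and Kcna2 by 0.26 (0.556), which does not show that they were equal; the sign for Kcnj10 and Trpm3 changed with the scaling. Cacng4 differed by -1.11 (adjusted p = 0.00842; 0.121 after cyclic loess) and Kcnq1 by -1.08 (0.156). Kcnk1 and Kcna1 had the largest positive differences, 0.87 and 0.84, carried by SKP-derived array 1 with 9.47, 7.62 and 7.12 for Kcnk1 on arrays 1, 2 and 3, and neither passed (adjusted p = 0.192 and 0.392).

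The arrays of 1 group did not always agree. The range over the 3 arrays exceeded 1 log2 unit in 17 channel genes in SKP-derived Schwann cells and in 6 in nerve Schwann cells, against 25 in SKPs, and its median was 0.433, 0.171 and 0.442 in that order. In nerve Schwann cells 8 channel genes had a range under 0.01, while no channel gene did so in the other groups. Ranges over all genes were not counted, so these numbers are no result about channels as such. The widest range in SKPs was that of Kcna4, an A-type channel, with 5.02, 5.04 and 8.05, followed by Kcna1 with 4.96, 7.49 and 4.54, Kcnt2, a sodium-activated channel, with 4.62, 4.28 and 7.22, and Kcnf1 with 9.30, 9.50 and 6.58. SKP array 3 was thus high in Kcna4 and Kcnt2 and low in Kcnf1 and Kcnk2, while array 2 stood alone in Kcna1. SKP array 3 also had the lowest mean of the dermal mesenchyme markers, 10.64 against 12.03 and 12.02, and the highest of the melanocyte markers, 6.85 against 6.01 and 6.30; the part of these cells was not tested.

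**Figure D4:**
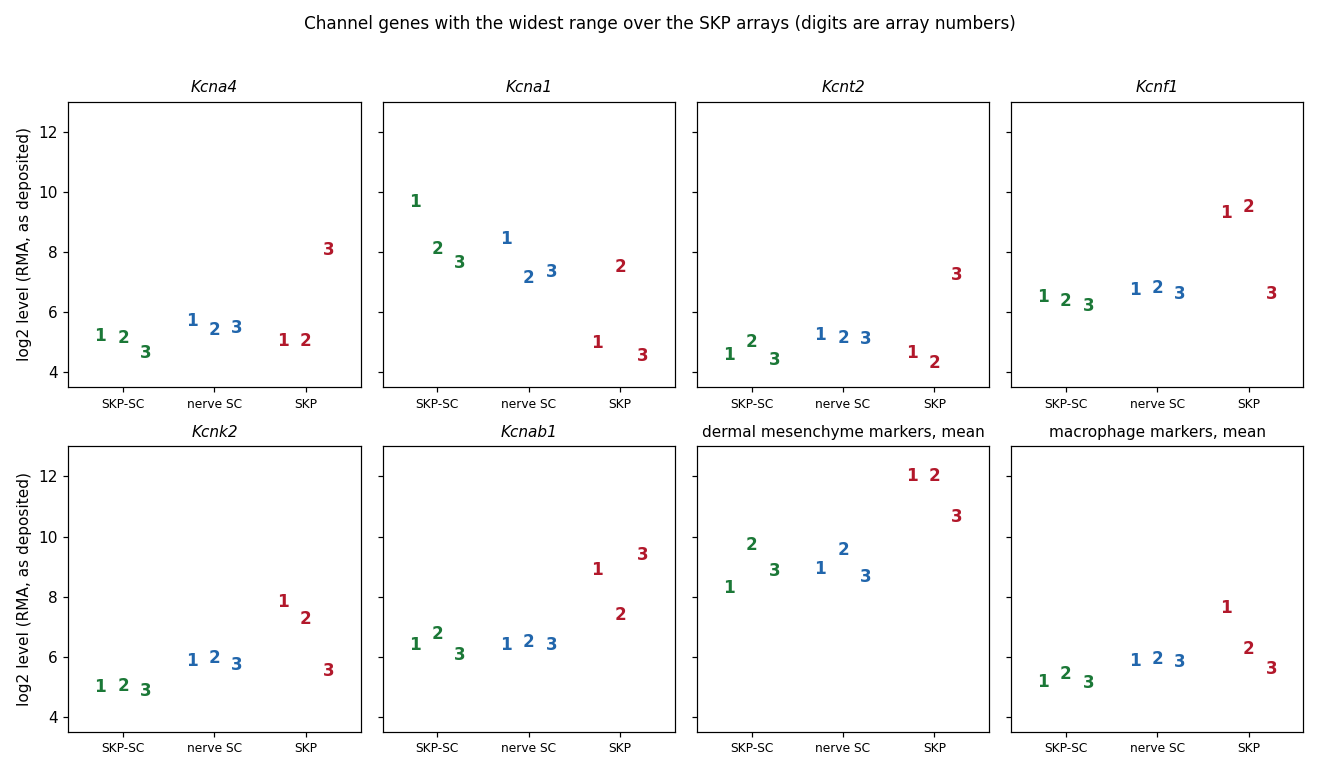
Log2 level as deposited of the 6 channel genes with the widest range over the SKP arrays, and the mean of the dermal mesenchyme and macrophage markers, with each point drawn as its array number. SKP array 3 stands apart in Kcna4, Kcnt2, Kcnf1 and Kcnk2 and in the mesenchyme markers, SKP array 2 in Kcna1 and Kcnab1, and SKP array 1 in the macrophage markers.

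Proteins that place channels at axon contacts and nodes were read as a related list, of which 17 of 20 were measured. Relative to SKPs, 6 rose and 2 fell in SKP-derived Schwann cells, and 7 rose and 2 fell in nerve Schwann cells, beside 17.7% and 21.4% of all genes in SKP-derived and 22.4% and 14.9% in nerve Schwann cells. Ank3, the ankyrin that anchors sodium channels at nodes, had 10.52, 9.43 and 10.18 in SKP-derived and 11.38, 11.22 and 11.25 in nerve Schwann cells, against 6.28, 6.12 and 5.74 in SKPs, and rose by 4.0 and 5.24. Lgi4, a secreted Schwann cell signal for myelination, rose by 3.59 and 4.63, its relative Lgi1 by 3.39 and 4.13, and Adam23, a receptor for the Lgi proteins, by 3.95 and 4.55. Cntn1 and Dlg1 fell in both. Gldn, gliomedin, which clusters nodal sodium channels, was 1.67 higher in SKP-derived than in nerve Schwann cells as deposited (adjusted p = 0.0281) and 1.80 higher after cyclic loess (adjusted p = 0.127). Of the 4 fibroblast growth factor homologous factors, which bind sodium channel tails, Fgf14 fell in SKP-derived and Fgf11 rose in nerve Schwann cells, by 0.93 and 1.51.

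Of 18 genes of intracellular calcium release and store-operated entry, 5 rose and 6 fell in SKP-derived Schwann cells, and 5 rose and 4 fell in nerve Schwann cells. The shares over all genes were 17.7% and 21.4% in SKP-derived and 22.4% and 14.9% in nerve Schwann cells. Stim2, a calcium sensor of the endoplasmic reticulum, had 10.08, 9.58 and 9.97 in SKP-derived and 10.46, 10.29 and 10.35 in nerve Schwann cells against 8.27, 7.92 and 8.75 in SKPs and rose by 1.57 and 2.06. Mcoln3, an endolysosomal channel, had 4.07, 4.46 and 4.39 and 5.27, 5.30 and 4.94 against 5.89, 7.41 and 10.68 in the same order and fell by 3.68 and 2.82. Mcu, the pore of the mitochondrial calcium uniporter, had differences of -1.88 in SKP-derived and -1.43 in nerve Schwann cells and fell in both, and Tpcn2, a lysosomal channel, rose by 1.17 and 1.75. Ryr3, a ryanodine receptor, rose by 2.25 in SKP-derived Schwann cells, and in nerve Schwann cells it was called as deposited only (1.74, adjusted p 0.159 after cyclic loess).

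Among 35 further plasma membrane channels, 10 rose and 3 fell in SKP-derived and 13 rose and 2 fell in nerve Schwann cells. Of all genes, 17.7% rose and 21.4% fell in SKP-derived and 22.4% rose and 14.9% fell in nerve Schwann cells. Gja1, the main connexin of fibroblasts, had 5.82, 9.14 and 8.01 in SKP-derived and 7.35, 9.05 and 6.06 in nerve Schwann cells, against 12.20, 11.93 and 10.84 in SKPs, and fell by 4.01 and 4.17. Lrrc8b and Lrrc8d, subunits of the volume-regulated anion channel, rose by 2.87 and 2.71 in SKP-derived and by 3.61 and 2.88 in nerve Schwann cells, and Ano4, an anoctamin, by 2.69 and 4.08. Gjb5 fell in SKP-derived relative to nerve Schwann cells, by 1.16 as deposited (adjusted p = 0.00192) and 0.60 after cyclic loess (adjusted p = 0.0486). Of 27 ion pumps and cotransporters, 5 rose and 7 fell in SKP-derived and 6 rose and 3 fell in nerve Schwann cells, beside the same shares of all genes. The regulators of the sodium pump were divided, Fxyd6 rising by 3.93 and 3.47, the pump subunit Atp1b2 by 2.55 and 3.97 and Fxyd1 by 1.95 and 3.33 in SKP-derived and nerve Schwann cells, while Fxyd5 fell by 3.10 and 3.30. Atp2b4, a calcium pump of the plasma membrane, fell too, with differences of -3.52 in SKP-derived and -2.79 in nerve Schwann cells.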

How the data were processed

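The 9 arrays (3 each of SKP-derived Schwann cells, nerve Schwann cells and SKPs) were deposited by the authors as log2 values; the submitters' processing notes name RMA and Affymetrix Expression Console, without versions. Whether all arrays were normalised together is not stated, and their number limits the precision. Of 29214 features, 15310 have 1 gene symbol, 323 several and 13581 none; features with several symbols were left out, among them 4 with a channel symbol. Comparisons were fitted with limma 3.58.1 in R 4.3.3 on all 9 arrays over 14506 genes, with Benjamini-Hochberg adjustment and a threshold of 0.05, and repeated after median centring, cyclic loess and quantile normalisation, with a level filter, feature means, other limma settings, a replicate block and arrays left out. The procedure was tested on simulated data. Members, gene lists and naming rule (up to 15 largest rises and 15 largest falls per comparison without overlap between groups, and 38 channels of known role, of which 32 were measured) were chosen with earlier results of these data known. All 150 member symbols matched RefSeq.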

Additional observations from a re-analysis of the deposited data

How the results depend on the processing

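Scaling decided the counts that involve nerve Schwann cells. Over all genes, 49.7% were called higher and 14.9% lower in nerve Schwann cells minus SKPs as deposited, against 22.4% and 25.6% after cyclic loess. In SKP-derived minus nerve Schwann cells 42.3% were lower and 1.33% higher as deposited, against 0.6% and 0.731% after cyclic loess. Shares of all genes are not given for the other settings below, so those counts are no result about channels as such. For nerve Schwann cells minus SKPs, 101 channel genes were called higher as deposited, against 33 after median centring, 36 after cyclic loess and 35 after quantile normalisation; 16 were called lower as deposited, against 28, 30 and 31. For SKP-derived minus nerve Schwann cells, 94 were called lower as deposited, against 5, 1 and 3, and 0 were called higher as deposited, against 0, 1 and 1. Testing only genes at or above the median level left 34 of the 150 members, of which 10 were called higher and 10 lower in SKP-derived Schwann cells minus SKPs, 17 and 8 in nerve Schwann cells minus SKPs, and 9 lower in SKP-derived minus nerve Schwann cells; fewer genes were tested there.

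Leaving out 1 array at a time gave 15 to 24 higher and 19 to 26 lower in SKP-derived Schwann cells minus SKPs, 90 to 102 and 12 to 16 in nerve Schwann cells minus SKPs, and 0 and 68 to 109 in SKP-derived minus nerve Schwann cells. After cyclic loess, a repeat chosen after seeing the data, the ranges were 14 to 22 and 21 to 28, 23 to 37 and 21 to 32, and 0 to 1 and 0 to 4; the 23 came without nerve array 1 or 2, and without array 1 of SKPs the nerve counts were 29 and 27, without array 1 of SKP-derived Schwann cells 32 and 29. Of the genes that rose or fell in both scalings, 31 of 42 in SKP-derived Schwann cells and 33 of 52 in nerve Schwann cells kept both calls without any 1 array; the Scn3b call of SKP-derived minus nerve Schwann cells did not.

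Among the 53 genes named by rule, 3 genes called as deposited in nerve Schwann cells minus SKPs changed sign after scaling. Kcna6 in nerve Schwann cells minus SKPs was -0.056 after cyclic loess and -0.048 after quantile normalisation; Kcnc1 was -0.13 after centring, -0.19 after cyclic loess and -0.18 after quantile normalisation, and Scn3a was -0.11, -0.18 and -0.23. Scn3a in SKP-derived minus nerve Schwann cells, also called as deposited, was 0.11 after both cyclic loess and quantile normalisation. Genes called in no scaling changed sign too: 3 in SKP-derived Schwann cells minus SKPs, 17 in SKP-derived minus nerve Schwann cells and 5 in nerve Schwann cells minus SKPs, where Kcnma1 was -0.39 after centring, -0.53 after cyclic loess and -0.51 after quantile normalisation, against 0.22 as deposited. The cause was not tested.

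Whether replicate numbers pair the samples was not settled. Same-numbered arrays had correlations of their deviations between -0.124 and 0.289, but differently numbered arrays were not compared with them. With the replicate number as a block, 21 members were called higher and 26 lower in SKP-derived Schwann cells minus SKPs, 98 and 17 in nerve Schwann cells minus SKPs, and 0 and 93 in SKP-derived minus nerve Schwann cells.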
